A study of Homo sapiens with 54 samples.

Results

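The genes described here are 42 lysosomal genes, taken by symbol from a table of 50037 gene entries: 9 cathepsins, 11 other hydrolases, 3 soluble proteins without hydrolase activity, 6 membrane proteins, 2 Rag GTPases and 11 subunits of the V-ATPase. All 42 symbols had an entry, and 37 of them passed the filter on low values in each line. RNA was sequenced from HCT116, a colonic cancer line, and HepG2, a hepatocellular carcinoma line, with 3 libraries in each of 18 groups. Cells of each line, in DMEM with serum, received Torin1 (1 µM), TNF-a (100 ng/mL), IL-6 (50 ng/mL) or IL-10 (50 ng/mL) for 3 h or 6 h. The NC group of each line had medium alone. It has no time of its own and served as the comparator at both hours, and no vehicle group for Torin1 is named. Levels are FPKM, fragment counts adjusted for gene length and by a scaling factor per library, so they can be compared between genes.

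The lysosome is the acidic compartment in which cells break down proteins, lipids and glycans. The V-ATPase pumps protons into it with a membrane V0 sector and a cytosolic V1 sector, and the cathepsins and other hydrolases work at that pH. Its surface is also where the Rag GTPases recruit the kinase mTORC1 when amino acids are present. mTORC1 holds the transcription factors TFEB and TFE3 in the cytosol, and once released they bind the E-box CACGTG in promoters of many lysosomal genes. Torin1 is an ATP-competitive inhibitor of mTOR kinase.

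A RefSeq promoter window, 250 bases before to 50 after the gene's start on GRCh38.p14, was at hand for 29 of the 42 genes. CACGTG, which reads the same on both strands, stood in 9 of the 29 windows (31%), against 2396 of 27305 genes (8.77%). The longer palindrome TCACGTGA, each copy of which holds a CACGTG, stood in 5 of the 29 (17.2%), against 1.18% of all genes. A match describes the letters only. LAMP1 also holds CACGTG at 28 and 1 bases before its start. These copies lie in its TCACGTGA sites, which the stretch below leaves out. The stretches below are shown because these 6 genes, all with the motif, differed in what they did under Torin1; they run 5′ to 3′ on the gene's strand, and capitals mark CACGTG. CTSA lies at chr20:45891265-45891334 (plus strand), CTSD at chr11:1763943-1764002 (minus), RRAGC at chr1:38859853-38859912 (minus), ATP6V0D1 at chr16:67481188-67481247 (minus), MCOLN1 at chr19:7522554-7522623 (plus) and LAMP1 at chr13:113297029-113297118 (plus).
CTSA: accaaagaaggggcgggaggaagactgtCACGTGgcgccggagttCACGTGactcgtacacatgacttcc
CTSD: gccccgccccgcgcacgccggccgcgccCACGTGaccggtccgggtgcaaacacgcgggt
RRAGC: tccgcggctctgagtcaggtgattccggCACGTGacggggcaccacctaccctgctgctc
ATP6V0D1: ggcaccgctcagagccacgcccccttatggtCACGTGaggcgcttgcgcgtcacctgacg
MCOLN1: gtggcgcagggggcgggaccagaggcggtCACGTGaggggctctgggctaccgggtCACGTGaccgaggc
LAMP1: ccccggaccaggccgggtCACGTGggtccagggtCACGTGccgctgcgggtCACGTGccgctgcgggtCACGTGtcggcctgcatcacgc

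Reads recovered from the FPKM steps numbered 37569312 to 54587121 per library in HCT116 and 45078906 to 91065651 in HepG2. In HepG2, 8 hepatocyte markers summed to 12200 to 14780 FPKM per library, with APOB alone under 1 FPKM, while in HCT116 they summed to 1.532 to 7.935 FPKM. Of 7 colon epithelium markers, EPCAM (162.4 to 189 FPKM) and CDX2 (1.41 to 3.13 FPKM) passed 1 FPKM in HCT116 and CDX1, VIL1, CDH17, KRT20 and LGR5 did not in any library; the list summed to 164.7 to 191.2 FPKM in HCT116, against 185.9 to 208.9 FPKM in HepG2, where EPCAM, VIL1 and LGR5 were expressed. Of 8 macrophage and blood markers, PTPRC, CSF1R, TYROBP, CD163 and HBB were under 1 FPKM in every library of both lines. The list summed to 3.36 to 7.44 FPKM in HCT116, nearly all CD68, against 1163 to 1700.0 FPKM in HepG2, where LYZ had 1130 to 1675 FPKM, CD68 24.2 to 35.6 FPKM and CD14 up to 2.53 FPKM. In bulk RNA, fewer cells and less RNA per cell cannot be told apart. FTH1 and EIF4A1, which every cell uses, had a 0 in all 54 libraries, and a 0 may therefore be a failed estimate. GAA, acid alpha-glucosidase, was listed at 0 in 24 of 27 HCT116 and 23 of 27 HepG2 libraries, and CTSF, cathepsin F, in 26 and 22, and these rows are not described further. A copy row of GAA had values in every library, 0.129 to 2.76 FPKM in HCT116 and 0.241 to 4.04 FPKM in HepG2, and reads of the gene may be split between the rows. In the copy row HepG2 had 0.392, 0.392 and 0.497 FPKM after 6 h of Torin1, against 1.13, 3.14 and 3.445 FPKM in NC. HCT116 had 1.06, 1.195 and 1.85 FPKM after the same treatment, which overlapped NC at 1.02, 2.12 and 1.07 FPKM. The copy row also varied widely within groups, as in HepG2 after 6 h of IL-6, with 3.687, 0.2409 and 1.687 FPKM. It is no member, and no test result is given for it. The filter also left out IDUA, alpha-iduronidase, in both lines, CTSS and ARSA in HCT116, and CTSZ and RRAGD in HepG2. IDUA had 0.171, 0.166 and 0.152 FPKM in HCT116 NC, against 0.0234, 0.0514 and 0.0697 FPKM in HepG2 NC.

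Untreated HCT116 cells had lower levels of most lysosomal hydrolases than untreated HepG2 cells, while the V-ATPase split both ways. Of 39 genes tested between the NC groups, 8 were higher and 28 lower in HCT116, at a limma adjusted p under 0.05; 42.2% of all 12992 genes were higher and 43.3% lower in HCT116, 85.6% in all by the same test. Of 8 cathepsins 1 was higher and 6 lower in HCT116, and all 9 other hydrolases tested were lower, with a median difference of -0.975 in log2(FPKM + 1), against -0.00548 over all genes. Genes entered this comparison if they passed the filter in either line. CTSZ and RRAGD passed it in HCT116 alone and CTSS and ARSA in HepG2 alone, each where its level was higher. The filter thus favoured the direction of these genes, and their part in the counts is description only. Of 11 V-ATPase subunits, 5 were higher and 6 lower. Rescaling each library to an equal FPKM total moved the median of all genes to 0.20, and the split of the 39 became 12 higher and 23 lower.

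PSAP, the precursor of the saposins that help hydrolases reach sphingolipids, had the highest level of the 42 in both lines: 101.5, 106.0 and 103.8 FPKM in HCT116 NC, against 210.4, 218.2 and 210.7 FPKM in HepG2 NC. Next in HCT116 came ATP6V1E1, a V1 stalk subunit, at 77.2 ± 1.69 FPKM (SD, n = 3), then LAMP1, a heavily glycosylated membrane protein, at 70.03 ± 1.92 FPKM, and ATP6V0C, the proton-carrying ring subunit, at 63.5 ± 0.587 FPKM. In HepG2 the genes after PSAP were CTSA, the protease also called protective protein, at 102 ± 2.50 FPKM, LAMP1 at 92.9 ± 1.79 FPKM and CTSD, the aspartic protease cathepsin D, at 88.2 ± 3.62 FPKM. The libraries of LAMP1 and CTSD did not overlap in HepG2 NC, at 91.64 to 94.97 FPKM against 84.0 to 90.33 FPKM.

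CTSZ and RRAGD were near 0 in HepG2. CTSZ, a carboxypeptidase, had 36.6, 41.1 and 40.1 FPKM in HCT116 NC, against 0.0853, 0.264 and 0.249 FPKM in HepG2 NC, a difference of 5.07 on the log2(FPKM + 1) scale. RRAGD, a Rag GTPase, had 4.33, 4.49 and 4.46 FPKM in HCT116 NC, against 0.104, 0.0925 and 0.0482 FPKM in HepG2 NC, a difference of 2.33. The log2(FPKM + 1) scale understates the change of such low genes. The opposite held for CTSH, an aminopeptidase, with 1.98, 2.74 and 2.22 FPKM in HCT116 NC, against 43.9, 43.8 and 43.7 FPKM in HepG2 NC, a difference of -3.76. CTSD (-2.15), LIPA, the acid lipase that frees cholesterol and fatty acids (-1.85), CTSC, which activates serine proteases (-1.74), CTSA (-1.70), CTSB (-1.69) and HEXA, a subunit of beta-hexosaminidase (-1.66), were also lower in HCT116. No library of one line overlapped the other for any of these genes.

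RRAGC, the Rag GTPase that pairs with RRAGA or RRAGB, did not pass the test between the lines, with 11.2, 12.1 and 12.3 FPKM in HCT116 NC, against 11.8, 12.1 and 11.8 FPKM in HepG2 NC; under equal FPKM totals it was higher in HCT116 (0.233, adjusted p = 4.09e-05). Among V-ATPase genes, ATP6V1C1 (0.72), ATP6V1D (0.63), ATP6V0D1 (0.46) and ATP6V1H (0.26) were higher in HCT116, and ATP6AP1 (-0.61), ATP6V1B2 (-0.36), ATP6V0E1 (-0.35), ATP6V1A (-0.29) and ATP6V0A1 (-0.19) were lower; under equal FPKM totals ATP6V0A1 was 0.03. ATP6V1E1 (0.10) lost its call without HCT116 NC replicate 1 or 2 or any HepG2 NC replicate (0.08 to 0.105, adjusted p 0.0524 to 0.141). ATP6V0C (-0.115) lost it without HepG2 NC replicate 3 (-0.0852, adjusted p = 0.0667), and under equal FPKM totals it was higher in HCT116 (0.14, adjusted p = 0.00234).

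**Figure D1:**
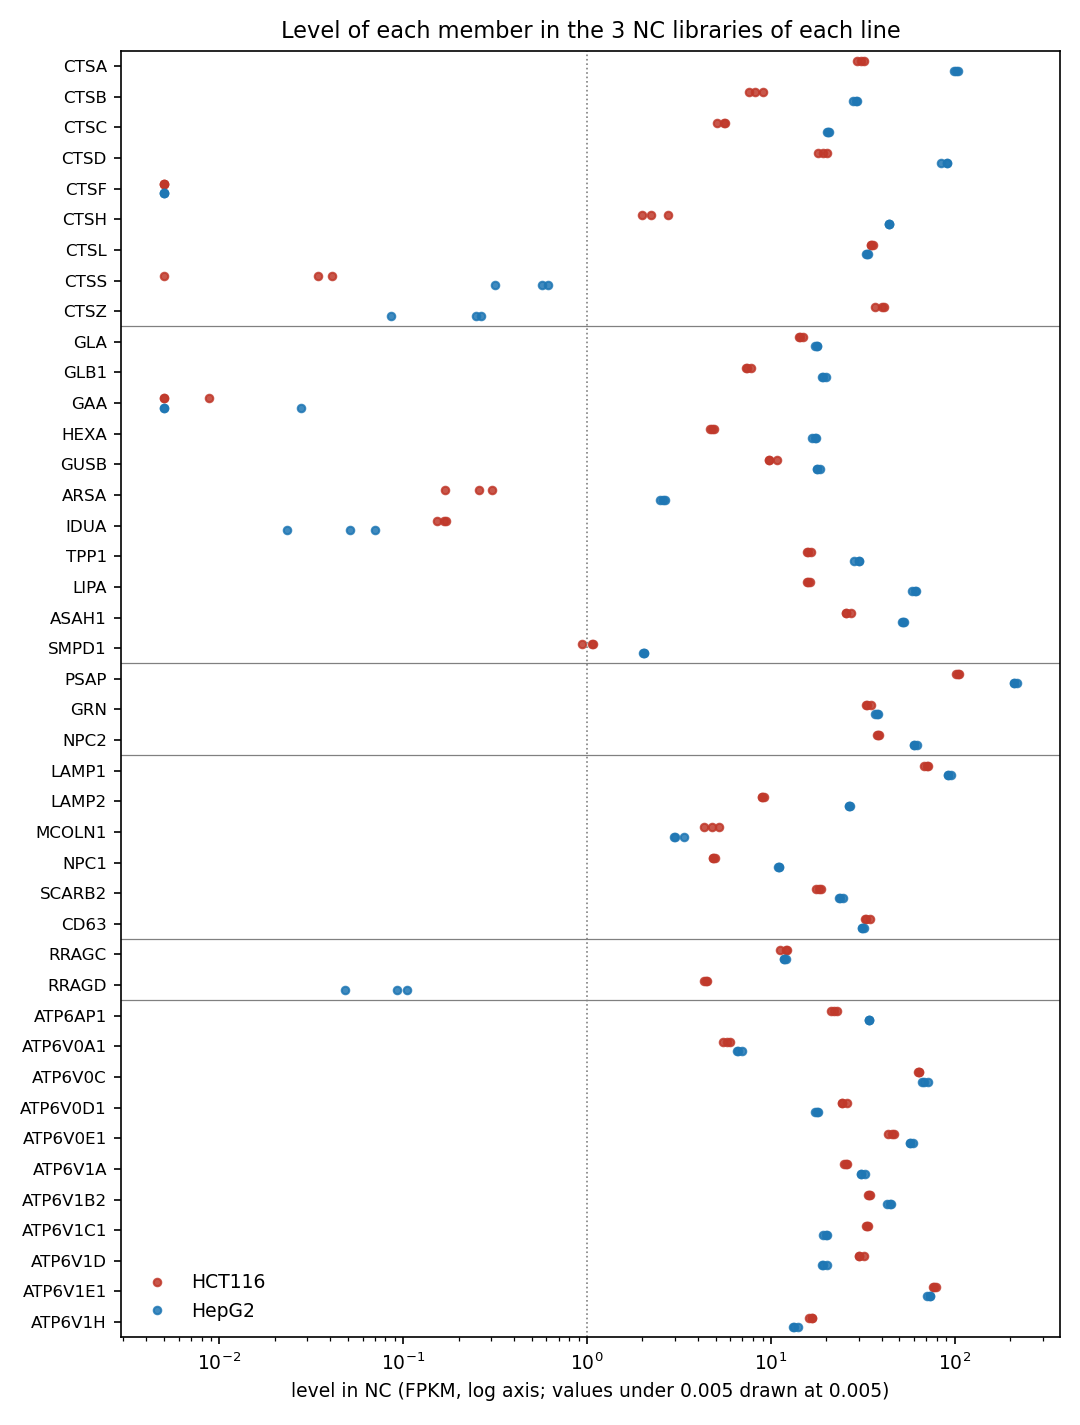
FPKM of the 42 genes in the 3 NC libraries of HCT116 (red) and HepG2 (blue) on a log axis, with classes split by horizontal lines and 1 FPKM dotted; values under 0.005 are drawn at 0.005. CTSZ and RRAGD lie far to the right in HCT116, CTSH far to the right in HepG2, and most V-ATPase subunits lie close together in both lines.

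In HCT116, 4 of 7 cathepsins and all 3 soluble proteins rose at both hours of Torin1, while V-ATPase subunits mostly did not pass the test or fell. At 3 h, 16 of the 37 genes rose and 3 fell against NC, where 25.1% of all 11395 genes tested rose, 28.6% fell and 53.7% changed in all (limma, adjusted p under 0.05). At 6 h, 14 rose and 8 fell, where 25.8% of all genes rose, 31.5% fell and 57.2% changed. The share of the 37 that changed was thus near that of all genes, with rises more and falls less frequent among them than in the table as a whole. The median difference of the 37 was 0.07 at 3 h and 0.04 at 6 h, against -0.00455 and -0.02 over all genes. Each of these changes was small: apart from NPC1, every called difference lay within 0.50 of 0 on the log2(FPKM + 1) scale. Under equal FPKM totals, which moved the median of all genes to -0.09 and -0.08, the splits became 11 rises and 10 falls at 3 h, and 12 and 12 at 6 h. With median-of-ratios factors they were 19 and 3 at 3 h, and 17 and 6 at 6 h. Here and below, the shares of all genes are those of the values as deposited. Splits under another scaling have no such share beside them and are not to be read against these.

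Of 7 cathepsins tested in HCT116, 4 rose and 1 fell at 3 h, with a median of 0.17, and 4 rose and 1 fell at 6 h, with a median of 0.23; under equal FPKM totals 2 rose and 1 fell at 3 h. CTSD had 21.8, 23.9 and 23.2 FPKM after 3 h and 26.7, 26.2 and 26.6 FPKM after 6 h, against 19.1, 18.0 and 20.2 FPKM in NC. Every Torin1 library was above every NC library, and the gene rose by 0.25 ± 0.04 (SE, adjusted p = 2.61e-05) and 0.45 ± 0.04 (adjusted p = 7.55e-09). CTSA had 34.3, 35.7 and 33.9 FPKM after 3 h and 36.4, 38.2 and 38.6 FPKM after 6 h, against 29.4, 31.9 and 30.8 FPKM in NC. Its groups were also apart, by 0.17 (adjusted p = 0.00168) and 0.29 (adjusted p = 4.4e-06), although the 3 h call was lost under equal FPKM totals (0.07, adjusted p = 0.21).

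CTSB, a cysteine protease, had 10.3, 10.4 and 10.6 FPKM after 3 h and 10.8, 10.3 and 10.4 FPKM after 6 h, against 9.07, 8.19 and 7.58 FPKM in HCT116 NC. It rose by 0.31 at 3 h and 0.32 at 6 h, but the table holds a copy row of CTSB and reads may be split between them; with both rows summed the differences were 0.31 and 0.365. CTSL, another cysteine protease, rose by 0.17 at 3 h, a call lost under equal FPKM totals (0.07, adjusted p = 0.201), and by 0.23 at 6 h. CTSC went the other way, with 4.55, 4.76 and 4.80 FPKM after 3 h and 3.81, 3.77 and 4.16 FPKM after 6 h, against 5.61, 5.54 and 5.10 FPKM in NC. All 6 Torin1 libraries were below all NC libraries, and it fell by 0.17 (adjusted p = 0.00165) and 0.38 (adjusted p = 8.95e-08). CTSH and CTSZ did not pass the test in HCT116 at either hour.

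Of 8 other hydrolases tested in HCT116, 4 rose and none fell at 3 h, and 3 rose and 2 fell at 6 h; under equal FPKM totals 4 rose and 2 fell, and 3 and 3, and with median-of-ratios factors none fell at 6 h. HEXA had 5.79, 5.92 and 5.32 FPKM after 3 h and 6.70, 6.11 and 6.48 FPKM after 6 h, against 4.66, 4.89 and 4.75 FPKM in NC. GLB1, the beta-galactosidase, had 8.70, 8.90 and 9.45 FPKM after 3 h and 9.35, 9.70 and 9.18 FPKM after 6 h, against 7.32, 7.80 and 7.42 FPKM in NC. For both genes no Torin1 library overlapped NC, and the differences were 0.21 and 0.36 for HEXA and 0.23 and 0.29 for GLB1. TPP1, a tripeptidase, rose by 0.23 and 0.24. LIPA rose at 3 h, with 17.8, 19.2 and 19.3 FPKM, against 15.9, 15.7 and 16.2 FPKM in NC (0.22, adjusted p = 0.000305), and at 6 h did not pass (0.09, adjusted p = 0.0953). ASAH1, acid ceramidase, and GUSB, beta-glucuronidase, did not pass at either hour. The overlapping antisense genes of HEXA, ASAH1 and CD63 could not be told apart from them, since use of strand in counting is not stated.

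All 3 soluble proteins rose in HCT116 at both hours. GRN, the granulin precursor, had 41.6, 42.5 and 41.7 FPKM after 3 h and 48.3, 46.9 and 48.3 FPKM after 6 h, against 34.8, 33.1 and 33.0 FPKM in NC. Each hour stood clear of NC, by 0.31 ± 0.04 (adjusted p = 8.79e-07) and 0.50 ± 0.04 (adjusted p = 9.98e-10), and the genes beside it were PSAP (0.20 and 0.27) and NPC2, the soluble cholesterol carrier of the lumen (0.20 and 0.21). GRN and PSAP had their highest HCT116 group mean with Torin1 at 6 h, but NPC2 had it with IL-10 at 3 h (45.27 FPKM).

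Of 6 membrane proteins, 3 rose and none fell in HCT116 at each hour. NPC1, which takes cholesterol from NPC2 and exports it, had the widest change of the 37 genes tested. It had 10.0, 11.8 and 10.8 FPKM after 3 h and 9.57, 9.34 and 8.06 FPKM after 6 h, against 4.95, 4.82 and 4.85 FPKM in NC. The NC mean was the lowest of the HCT116 groups for NPC1, so the cytokine means stood above NC too. NC averaged 4.87 ± 0.0674 FPKM (SD, n = 3), every Torin1 library was above it, and the differences were 1.01 ± 0.05 (adjusted p = 1.84e-12) and 0.76 ± 0.05 (adjusted p = 1.13e-10). SCARB2, the receptor that carries glucocerebrosidase, rose by 0.19 and 0.20. LAMP2, which also serves chaperone-mediated autophagy, rose by 0.15 at 3 h (adjusted p = 0.00414), a call lost under equal FPKM totals (0.05, adjusted p = 0.259), and did not pass at 6 h (0.09, adjusted p = 0.0695). MCOLN1, the lysosomal calcium channel, and the tetraspanin CD63 did not pass at either hour.

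RRAGC fell in HCT116 at 3 h, with 8.01, 8.70 and 8.10 FPKM, against 11.2, 12.1 and 12.3 FPKM in NC (-0.47 ± 0.05, adjusted p = 9.03e-08). At 6 h it had 12.7, 11.18 and 10.99 FPKM, which overlapped NC (-0.03, adjusted p = 0.661).

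Of the 11 V-ATPase genes in HCT116, 2 rose and 1 fell at 3 h, with a median of 0.0084, and 1 rose and 4 fell at 6 h, with a median of -0.04. ATP6V1H, the regulatory V1 subunit, had 17.4, 20.1 and 18.9 FPKM after 3 h and 18.8, 19.1 and 18.1 FPKM after 6 h, against 16.7, 16.1 and 16.6 FPKM in NC (0.18 and 0.17). ATP6V1D, of the rotating central stalk, had 26.4, 26.3 and 25.7 FPKM after 6 h, against 31.9, 30.2 and 30.0 FPKM in NC, and fell by 0.22 (adjusted p = 0.000196). ATP6V0D1, which joins the stalk to the membrane ring, had 21.6, 22.6 and 23.0 FPKM after 6 h, against 24.4, 25.9 and 24.2 FPKM in NC, and fell by 0.14 (adjusted p = 0.00466). ATP6V1H stood above NC and the other 2 below it in every library named here. ATP6AP1, an accessory protein, ATP6V0C, ATP6V0E1, ATP6V1C1 and ATP6V1E1 did not pass at either hour. No subunit rose at either hour under equal FPKM totals, 6 fell at 3 h and 7 at 6 h, and ATP6V1H did not pass at 3 h (0.08, adjusted p = 0.15) or 6 h (0.10, adjusted p = 0.0858). With median-of-ratios factors 3 rose and 1 fell at 3 h, and 1 rose and 4 fell at 6 h.

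Calls of 7 further changes in HCT116 rested on single libraries. At 3 h, ATP6V1A, the ATP-binding subunit (0.10), lost its call without Torin1 replicate 2 or 3 or NC replicate 1 or 2 (0.08 to 0.10, adjusted p 0.0533 to 0.106), and ATP6V1D (-0.14) without Torin1 replicate 2 (-0.117, adjusted p = 0.0556) or NC replicate 1 (-0.113, adjusted p = 0.062). At 6 h, GLA, alpha-galactosidase A (-0.17), lost it without Torin1 replicate 1 or 2 or any NC replicate (-0.186 to -0.152, adjusted p 0.0609 to 0.124). SMPD1, acid sphingomyelinase (-0.16), lost it without Torin1 replicate 2, NC replicate 1 or 3 (-0.166 to -0.145, adjusted p 0.0872 to 0.132) or Torin1 replicate 3 (-0.0858, adjusted p = 0.307), and with the replicate number as a block (-0.16, adjusted p = 0.0538). LAMP1 (0.08) lost it without Torin1 replicate 1 or 3 or NC replicate 1 (0.06 to 0.08, adjusted p 0.0614 to 0.158). RRAGD (-0.14) lost it without Torin1 replicate 1 (-0.106, adjusted p = 0.0812), and ATP6V0A1, of the V0 sector, without Torin1 replicate 3 (-0.0941, adjusted p = 0.0576). The other 17 calls at each hour were kept whichever library was left out.

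**Figure D2:**
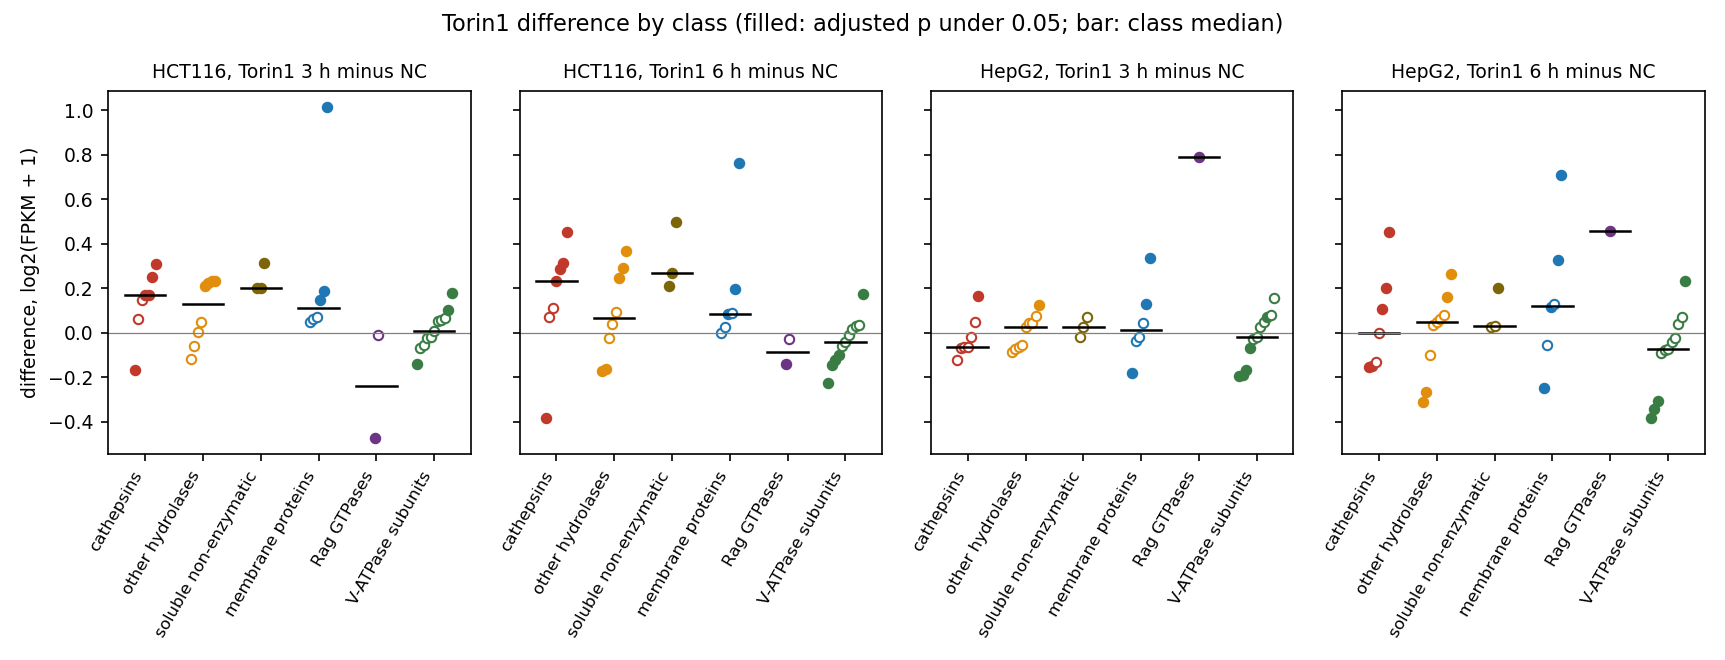
Difference between Torin1 and NC in log2(FPKM + 1), 1 point per gene, by class, line and hour; filled points have an adjusted p under 0.05 and bars are class medians. The cathepsin and soluble medians lie above 0 in HCT116 (0.17 and 0.20 at 3 h), and the V-ATPase medians lie near 0 in both lines.

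HepG2 gave fewer calls at 3 h and a mixed picture at 6 h. Torin1 for 3 h raised 6 of the 37 genes and lowered 5, where 19.4% of 11280 genes rose, 26.1% fell and 45.5% changed; after 6 h, 11 rose and 8 fell, where 26.1% rose, 33.8% fell and 59.9% changed (limma, adjusted p under 0.05). The median difference of the 37 was -0.02 at 3 h and 0.03 at 6 h, against -0.04 and -0.03 over all genes. With median-of-ratios factors the splits were 10 and 4 at 3 h, and 16 and 7 at 6 h, and under equal FPKM totals they were 4 and 5, and 13 and 8.

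RRAGC rose to 21.8, 21.4 and 20.7 FPKM after 3 h and 16.2, 17.3 and 16.5 FPKM after 6 h, against 11.8, 12.1 and 11.8 FPKM in HepG2 NC. The hours lay apart from NC and from each other, by 0.79 ± 0.05 (adjusted p = 1.46e-11) and 0.45 ± 0.05 (adjusted p = 3.88e-08) against NC. NPC1 had 14.7, 13.8 and 14.1 FPKM after 3 h and 17.9, 18.9 and 19.2 FPKM after 6 h, against 11.1, 10.9 and 11.1 FPKM in NC. It rose by 0.34 (adjusted p = 2.15e-07) and 0.71 (adjusted p = 9.63e-13), so that 6 h stood above 3 h in HepG2 and below it in HCT116. LAMP2 also rose at both hours, with 30.1, 28.4 and 29.0 FPKM and then 32.0, 34.2 and 34.8 FPKM, against 26.4, 26.8 and 26.5 FPKM in NC (0.13 and 0.33). CD63, a tetraspanin of the lysosomal membrane, had 25.6, 26.4 and 26.7 FPKM after 6 h, against 31.2, 31.9 and 31.2 FPKM in NC, and fell by 0.25 (adjusted p = 0.000746), with the same limit from its antisense gene.

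Of 7 cathepsins tested in HepG2, 1 rose at 3 h (none, and 1 fell, under equal FPKM totals), and 3 rose and 2 fell at 6 h (3 and 1 with median-of-ratios factors). CTSB had 40.6, 40.1 and 38.5 FPKM after 6 h, against 27.8, 29.5 and 29.2 FPKM in NC, and rose by 0.45 (adjusted p = 4.04e-06); with its copy row the difference was 0.49. CTSD had 100.0, 103 and 102 FPKM after 6 h, against 84.0, 90.2 and 90.3 FPKM in NC, a rise of 0.20 (adjusted p = 0.000871), and at 3 h it did not pass (0.05, adjusted p = 0.445). CTSC fell by 0.16 at 6 h. CTSA did not pass at either hour, with 95.2, 101 and 94.7 FPKM after 3 h and 97.7, 103 and 104 FPKM after 6 h, against 99.4, 104 and 102 FPKM in NC, 3 groups that overlap.

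Of 9 other hydrolases in HepG2, 1 rose at 3 h, and 2 rose and 2 fell at 6 h, where either other scaling gave 4 and 2. ASAH1 had 59.2, 55.1 and 56.5 FPKM after 3 h and 60.8, 64.0 and 63.9 FPKM after 6 h, against 53.0, 51.4 and 52.2 FPKM in NC, rises of 0.12 (adjusted p = 0.00225) and 0.26 (adjusted p = 1.86e-07). LIPA fell to 46.2, 51.9 and 47.1 FPKM after 6 h, against 60.6, 58.3 and 61.8 FPKM in NC (-0.31, adjusted p = 2.58e-05). GLA had 13.8, 15.1 and 14.6 FPKM after 6 h, against 17.8, 17.7 and 17.4 FPKM in NC (-0.27, adjusted p = 0.00073). No Torin1 library overlapped NC in these 3 genes, and TPP1 also rose at 6 h (0.16). HEXA, GLB1, GUSB, SMPD1 and ARSA, arylsulfatase A, did not pass at either hour; HEXA (0.08) and GLB1 (0.07) passed at 6 h under equal FPKM totals. MCOLN1 and LAMP1 did not pass in HepG2 at either hour. Of the soluble proteins GRN alone passed, at 6 h, with 42.2, 42.2 and 45.5 FPKM, against 36.8, 37.6 and 38.2 FPKM in NC (0.20, adjusted p = 0.000422).

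3 V-ATPase genes fell at both hours in HepG2. ATP6V0E1, a small V0 subunit, had 53.0, 49.2 and 49.2 FPKM after 3 h and 41.2, 46.5 and 44.5 FPKM after 6 h, against 58.9, 57.2 and 57.2 FPKM in NC. ATP6V0D1 had 15.94, 15.26 and 15.98 FPKM after 3 h and 13.5, 14.3 and 13.6 FPKM after 6 h, against 17.4, 18.1 and 17.9 FPKM in NC. ATP6V1D had 17.0, 17.2 and 16.6 FPKM after 3 h and 15.3, 15.9 and 15.4 FPKM after 6 h, against 20.3, 18.9 and 19.2 FPKM in NC. In all 3 the hours and NC were apart, and the differences at 6 h were -0.38 (adjusted p = 1.98e-07), -0.34 (adjusted p = 1.25e-06) and -0.31 (adjusted p = 1.55e-06). ATP6V1H, by contrast, had 15.44, 16.04 and 16.73 FPKM after 6 h, against 14.1, 13.4 and 13.2 FPKM in NC, and rose by 0.23 (adjusted p = 0.00601). Over the 11 subunits, 1 rose and 4 fell at 3 h, and 1 rose and 3 fell at 6 h; with median-of-ratios factors 3 rose and 3 fell at each hour, and under equal FPKM totals none rose and 3 fell at 3 h. ATP6AP1, ATP6V0C, ATP6V1A, ATP6V1B2 and ATP6V1E1 did not pass in HepG2 at either hour.

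The remaining 7 HepG2 calls depended on single libraries. At 3 h, the call of CTSB (0.16) was lost without any 1 of the 6 libraries compared (0.13 to 0.18, adjusted p 0.0562 to 0.163). CD63 (-0.18) lost its call without Torin1 replicate 3 (-0.15, adjusted p = 0.0687). ATP6V0A1 (-0.07) lost it without Torin1 replicate 2 or 3 or NC replicate 1 or 2 (-0.0748 to -0.0475, adjusted p 0.0641 to 0.216), and ATP6V1C1 (0.07) without Torin1 replicate 1 or 2 or NC replicate 2 or 3 (0.0423 to 0.0812, adjusted p 0.0554 to 0.271) or with the replicate block (adjusted p = 0.0566). At 6 h, CTSL (0.105) was lost without any 1 of 6 libraries (0.094 to 0.117, adjusted p 0.0539 to 0.117). SCARB2 (0.115) lost its call without Torin1 replicate 2 or 3 (0.0942 and 0.0905, adjusted p = 0.0671 and 0.0768). CTSH (-0.15) lost it without Torin1 replicate 3 (-0.106, adjusted p = 0.141) or any NC replicate (-0.15, adjusted p 0.0513 to 0.055). The other 7 calls at 3 h and 16 at 6 h were kept.

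**Figure D3:**
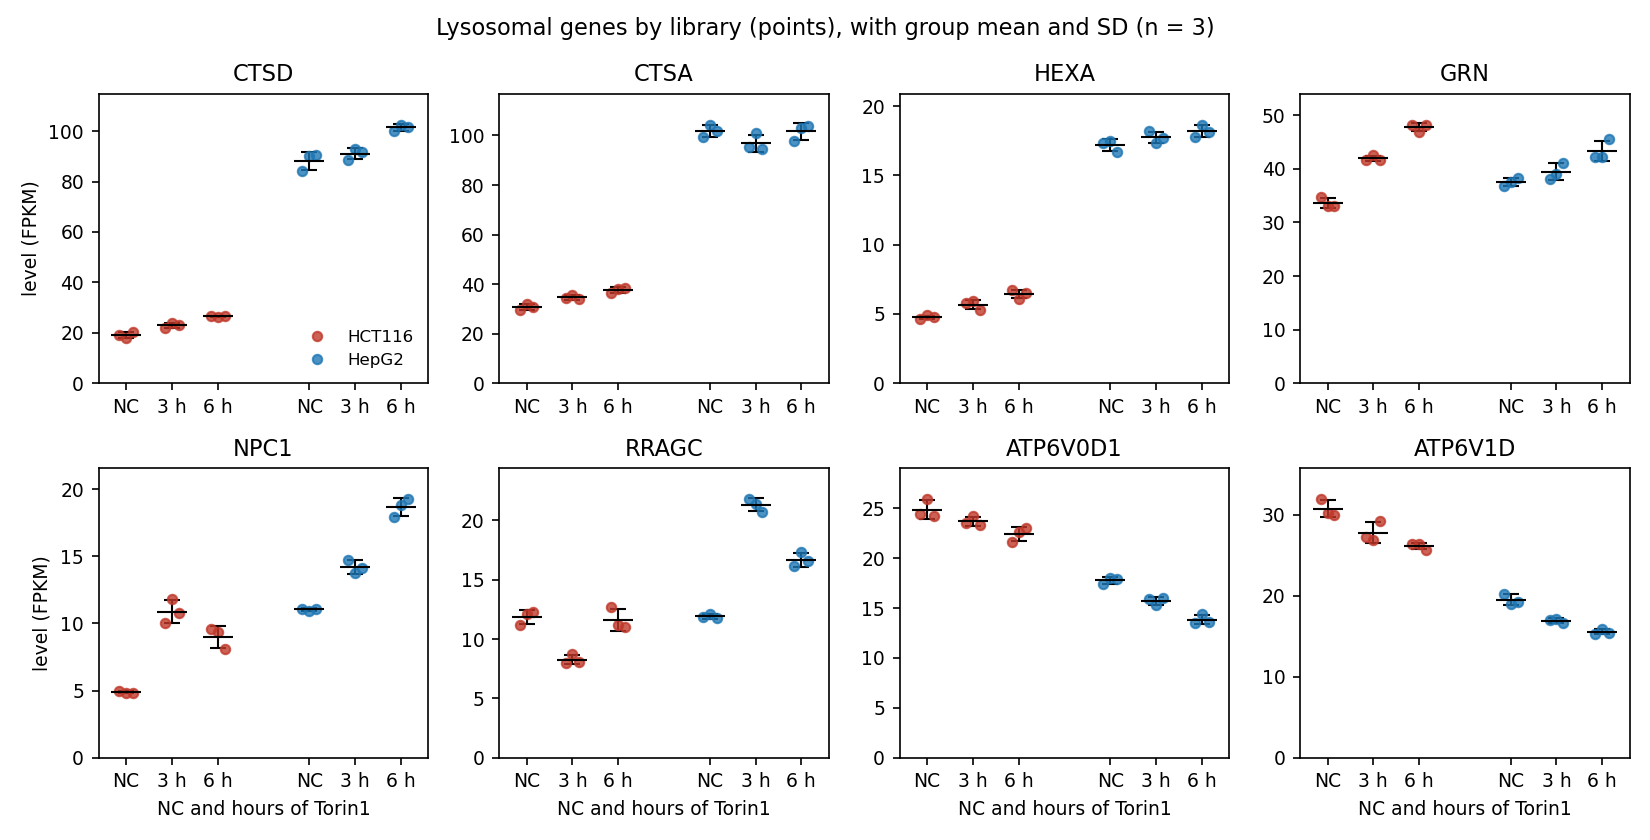
FPKM by library for 8 genes in NC and after 3 and 6 h of Torin1, HCT116 (red) left and HepG2 (blue) right in each panel; points are libraries, long bars group means and whiskers 1 SD (n = 3). RRAGC at 3 h lies below NC in HCT116 (8.01 to 8.70 FPKM) and above it in HepG2 (20.7 to 21.8 FPKM), and ATP6V0D1 and ATP6V1D step down in both lines.

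The Torin1 difference itself differed between the lines for 16 of 35 genes at 3 h, 14 greater and 2 smaller in HCT116, where 39.9% of 9683 genes passed, 20.4% with a greater and 19.5% with a smaller difference (limma interaction, adjusted p under 0.05). At 6 h it differed for 17, 12 greater and 5 smaller, where 50.1% of genes passed, 26.4% greater and 23.7% smaller. Greater here means more positive in HCT116 than in HepG2, so a fall in HepG2 can also count as greater. The splits were 8 and 4 at 3 h, and 10 and 7 at 6 h, under equal FPKM totals. RRAGC differed most, with -0.47 in HCT116 and 0.79 in HepG2 at 3 h, a difference of -1.26. NPC1 differed at 3 h (0.68) and did not pass at 6 h. Members with a more positive difference in HCT116 at both hours, with calls kept whichever library was left out, were CTSA (0.24 at 3 h and 0.29 at 6 h), CTSD (0.21 and 0.25), GLB1 (0.21 and 0.23), PSAP (0.22 and 0.24), GRN (0.24 and 0.29), LIPA (0.28 and 0.40) and CD63 (0.24 and 0.28). CD63 fell in HepG2 and did not pass against NC in HCT116 at either hour, and the same held for LIPA at 6 h. Under equal FPKM totals the 3 h differences of CTSD (0.12, adjusted p = 0.131) and GRN (0.15, adjusted p = 0.0602) did not pass. At 6 h ASAH1 (-0.285) and LAMP2 (-0.24) changed more upward in HepG2, and ATP6V0E1 (0.37) and ATP6V0D1 (0.20) fell further there; ATP6V0D1 did not pass under equal FPKM totals (0.11, adjusted p = 0.116). The genes whose promoter stretches are printed above were chosen because they differed, so their spread is no result about the motif. CTSA rose in HCT116 alone at the threshold used, and CTSD rose at 6 h in both lines. RRAGC moved in opposite directions at 3 h, and ATP6V0D1 fell at 6 h in both lines. LAMP1 passed in HCT116 at 6 h alone, with a call lost without any of 3 libraries, and MCOLN1 passed in neither. CTSF, GAA and CD63, which also have the motif, are not printed.

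**Figure D4:**
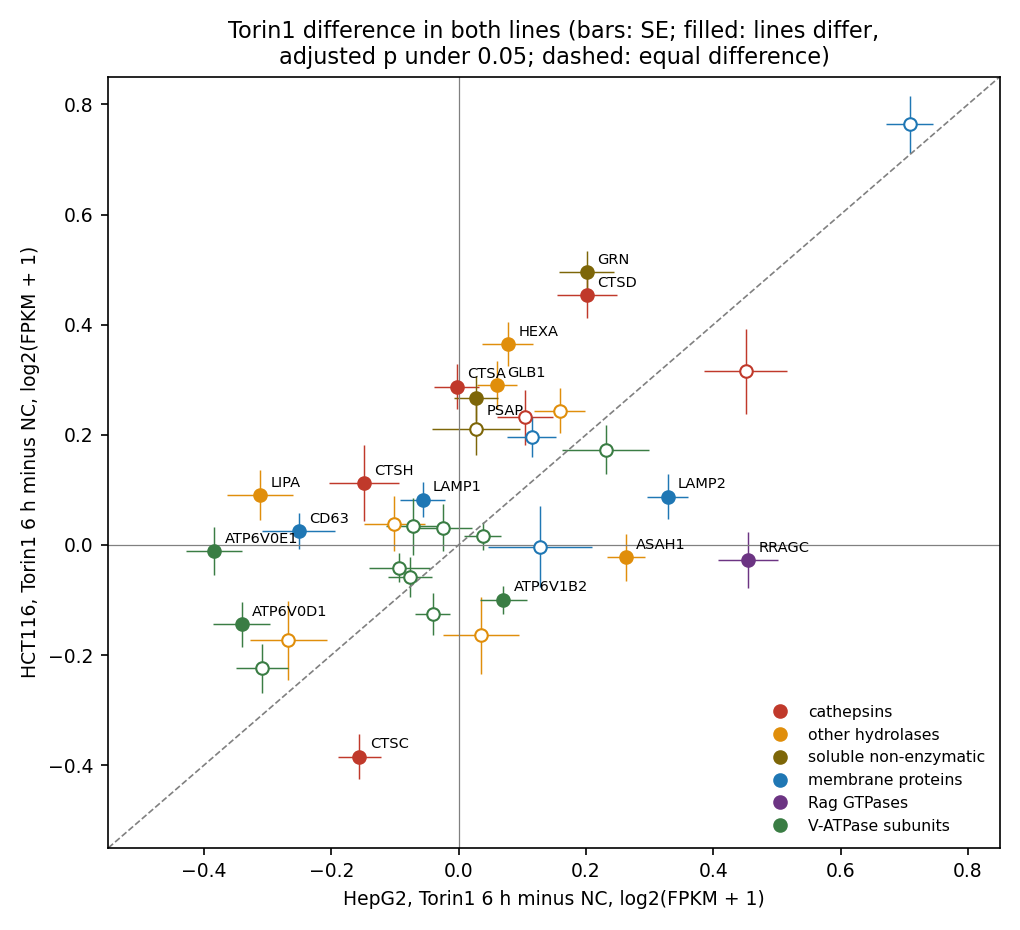
Difference after 6 h of Torin1 in HCT116 (vertical) against HepG2 (horizontal), log2(FPKM + 1), 1 point per gene with SE bars, coloured by class; filled, named points differ between lines at an adjusted p under 0.05, and the dashed line marks equal differences. NPC1 lies near the dashed line at the upper right, and RRAGC, ASAH1 and LAMP2 lie to its right.

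IL-10 of the same hour offered a comparator with a time, which NC lacks. Against IL-10 in HCT116, 9 genes were higher and 7 lower after 3 h of Torin1, where 17.6% of all genes were higher and 26.7% lower, 44.3% in all, and 12 and 11 after 6 h, where 23.6% were higher and 33.7% lower, 57.3% in all. The genes higher at both hours included GRN (0.47 at 3 h and 0.74 at 6 h), NPC1 (0.55 and 0.72), CTSD (0.33 and 0.54), GLB1 (0.31 and 0.41), TPP1 (0.28 and 0.45), HEXA (0.16 and 0.40), PSAP (0.22 and 0.37) and CTSA (0.18 and 0.32). CTSC (-0.19 and -0.42) and ATP6V1D (-0.23 and -0.36) were lower at both hours. NPC2, LIPA and LAMP2, which rose with Torin1 against NC at 3 h, had their highest HCT116 mean with IL-10 at 3 h (45.27, 19.94 and 10.28 FPKM). NC had the lowest HCT116 mean for NPC1, CTSL, SCARB2, LAMP2, ATP6V1H and CD63. None of the 11 V-ATPase genes was higher at 6 h and 6 were lower. With median-of-ratios factors the 6 h split of the 37 was 17 and 7, and under equal FPKM totals the splits were 9 and 11 at 3 h and 10 and 13 at 6 h.

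In HepG2, 6 genes were higher and 5 lower with Torin1 than with IL-10 at 3 h, where 21.5% of all genes were higher and 24% lower, 45.5% in all, and 17 and 7 at 6 h, where 28.7% were higher and 30.3% lower, 59% in all; under equal FPKM totals the 3 h split was 14 and 4. RRAGC was higher at both hours (0.74 at 3 h and 0.71 at 6 h), as were NPC1 (0.36 and 0.82) and LAMP2 (0.13 and 0.34). CTSB (0.48), ATP6V1H (0.35), TPP1 (0.30), ASAH1 (0.29), GRN (0.28), HEXA (0.20) and CTSD (0.20) were higher at 6 h. ATP6V0E1 (-0.41), LIPA (-0.37), ATP6V1D (-0.26), GLA (-0.26) and ATP6V0D1 (-0.25) were lower at 6 h. Torin1 groups are shared with the comparisons to NC, so these values are set beside them only.

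Between 3 h and 6 h of Torin1, RRAGC moved up in HCT116 (0.44) and down in HepG2 (-0.33), and NPC1 down in HCT116 (-0.25) and up in HepG2 (0.37). In HCT116 5 genes were higher and 7 lower at 6 h, where 14.1% of all genes were higher and 16.3% lower, 30.4% in all (5 and 4 under equal FPKM totals), and in HepG2 7 and 8, where 17% were higher and 19.3% lower, 36.4% in all. CTSD (0.20) and GRN (0.18) rose further in HCT116, while CTSC (-0.22 in HCT116 and -0.14 in HepG2) and ATP6V1A (-0.16 in each) fell in both lines. CTSB (0.29), LAMP2 (0.20), CTSL (0.17) and ASAH1 (0.14) were higher at 6 h in HepG2, and LIPA (-0.26), ATP6V0E1 (-0.19) and ATP6V0D1 (-0.17) lower.

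The cytokines changed fewer of these genes, with NPC1, SMPD1 and RRAGC moving most among the differences tested. The share of the 37 that changed was above that of all genes with IL-10 at both hours and IL-6 at 6 h in HCT116 and with IL-10 at 6 h in HepG2, and below it in the other cytokine comparisons. TNF-a in HCT116 raised 10 genes and lowered 2 at 3 h, where 19.2% of all genes rose and 22.4% fell, 41.6% in all, and raised 7 and lowered 5 at 6 h, where 16.7% rose and 17.1% fell, 33.9% in all. Under equal FPKM totals, which moved the median of all genes to -0.11 and -0.07, these splits became 3 and 14, and 3 and 15, so the direction of small changes there rests on the scaling. NPC1 had 8.40, 8.34 and 8.55 FPKM after 3 h of TNF-a and 6.65, 6.41 and 6.48 FPKM after 6 h, against 4.95, 4.82 and 4.85 FPKM in NC (0.68 and 0.36). SMPD1 had 1.60, 1.33 and 1.55 FPKM after 3 h and 1.67, 1.73 and 1.65 FPKM after 6 h, against 1.07, 0.934 and 1.08 FPKM in NC (0.30, adjusted p = 0.00162, and 0.41, adjusted p = 9.32e-05). Both genes stood clear of NC in all 6 TNF-a libraries. RRAGC fell at 3 h (-0.23) and rose at 6 h, with 14.5, 14.3 and 16.5 FPKM, against 11.2, 12.1 and 12.3 FPKM in NC (0.32, adjusted p = 3.35e-05). CTSH fell at 6 h, with 1.69, 1.61 and 1.69 FPKM, against 1.98, 2.74 and 2.22 FPKM in NC (-0.31, adjusted p = 0.0014). Of the TNF-a calls in HCT116, 11 of 12 at 3 h and 8 of 12 at 6 h were kept whichever library was left out.

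In HepG2, leaving CTSS aside, TNF-a raised 3 genes and lowered 1 at 3 h, where 12.8% of all genes rose and 16.9% fell, 29.7% in all, and raised none and lowered 7 at 6 h, where 11.9% rose and 16.8% fell, 28.7% in all. With median-of-ratios factors the splits, also without CTSS, were 5 and 0 at 3 h and 0 and 3 at 6 h, and under equal FPKM totals the 3 h split was 1 and 2. RRAGC at 3 h and ASAH1 and ATP6V1C1 at 6 h kept their calls whichever library was left out, and the other 8 calls did not. CTSS included, the counts of 5 and 8 dropped to 2 or 3 at 3 h without TNF-a replicate 1 or 2 or NC replicate 1 or 3, and to 4 or 5 at 6 h without TNF-a replicate 1 or 3 or any NC replicate. CTSS, a cysteine protease best known from antigen-presenting cells, had 0.833, 0.859 and 0.870 FPKM after 3 h and 1.26, 1.35 and 1.31 FPKM after 6 h, against 0.611, 0.568 and 0.316 FPKM in NC. Every TNF-a library was above every NC library, by 0.31 and 0.63. CTSS passed the filter in HepG2 only through its 6 h TNF-a libraries, so this change is given as a description, with no test. In HCT116, where CTSS was below the filter, it had 0.218, 0.208 and 0.213 FPKM after 6 h of TNF-a, against 0.0343, 0.0408 and 0 FPKM in NC. RRAGC rose in HepG2 after 3 h of TNF-a, with 15.78, 16.02 and 15.86 FPKM, against 11.8, 12.1 and 11.8 FPKM in NC (0.39, adjusted p = 1.43e-06).

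In HCT116 at 3 h, NPC1 and LIPA were higher with IL-6 and with IL-10 than in NC. NC has no time of its own and had the lowest HCT116 mean of NPC1. The part of the cytokine and that of time cannot be told apart here. Against NC, IL-6 raised 10 genes and lowered 1 at 3 h, where 15.9% of all genes rose and 15.6% fell, 31.6% in all, and raised 8 and lowered 1 at 6 h, where 11.1% rose and 5.45% fell, 16.6% in all. IL-10 raised 14 and lowered 2 at 3 h, where 21.8% rose and 16.9% fell, 38.8% in all, and raised 10 and lowered 3 at 6 h, where 14% rose and 6.49% fell, 20.5% in all. Compared directly, IL-6 and IL-10 differed in none of the 37 genes at 3 h and in 1 at 6 h, where 0.237% and 0.114% of 11395 genes differed. That gene was ATP6V0C (-0.14, adjusted p = 0.046), whose call was lost without IL-6 replicate 2 or 3 or any IL-10 replicate (-0.153 to -0.123, adjusted p 0.0798 to 0.219). The IL-6 splits became 2 and 10 at 3 h and 0 and 11 at 6 h under equal FPKM totals, and the IL-10 splits 7 and 10 at 3 h and 2 and 6 at 6 h; with median-of-ratios factors the IL-10 splits were 13 and 4, and 7 and 5. At 3 h NPC1 had 6.738, 7.319 and 7.204 FPKM with IL-6 and 7.36, 7.15 and 6.73 FPKM with IL-10, against 4.95, 4.82 and 4.85 FPKM in NC (0.46 each). LIPA had 20.7, 19.4 and 19.4 FPKM with IL-6 and 21.8, 19.3 and 18.7 FPKM with IL-10, against 15.9, 15.7 and 16.2 FPKM in NC (0.30 each). Both genes stood above NC in every library, and both calls held under all scalings. RRAGC fell with either cytokine at 3 h (-0.20 with IL-6 and -0.23 with IL-10), and GRN fell with either at 6 h (-0.23 and -0.24). At 3 h, 7 of 11 IL-6 calls and 13 of 16 IL-10 calls were kept whichever library was left out, and at 6 h 2 of 9, GRN and SCARB2, and 6 of 13. The 6 h IL-6 count dropped to 4 or 5 without IL-6 replicate 1 or 2 or any NC replicate, and that of IL-10 to 8 without IL-10 replicate 1 or 2 or NC replicate 3.

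In HepG2, IL-6 raised 5 genes and lowered 3 at 3 h, where 14.5% of all genes rose and 19.5% fell, 33.9% in all, and raised 2 and lowered 1 at 6 h, where 7.59% rose and 11.8% fell, 19.4% in all. IL-10 raised 1 and lowered none at 3 h, where 7.17% rose and 11.9% fell, 19.1% in all, and raised none and lowered 8 at 6 h, where 1.88% rose and 9.8% fell, 11.7% in all. With median-of-ratios factors IL-6 raised 8 and lowered none at 3 h and raised 3 and lowered none at 6 h; under equal FPKM totals it raised 2 and lowered 7 at 6 h, and IL-10 raised none and lowered 11 at 3 h. SMPD1 had 2.84, 2.75 and 2.33 FPKM after 3 h of IL-6, against 2.03, 2.00 and 2.04 FPKM in NC (0.26, adjusted p = 0.00162). RRAGC had 15.4, 14.2 and 14.3 FPKM after 3 h of IL-6, against 11.8, 12.1 and 11.8 FPKM in NC (0.28, adjusted p = 9.44e-05), and 9.31, 10.2 and 9.83 FPKM after 6 h of IL-10 (-0.26, adjusted p = 0.00161). The groups did not overlap for either gene. Of the 8 IL-6 calls at 3 h 3 were kept whichever library was left out, SMPD1, RRAGC and ATP6V0A1, with none of the 3 falls, and the count dropped to 5 without NC replicate 1 or 2. At 6 h SMPD1 alone was kept of 3, and the count was 1 without IL-6 replicate 2 or 3 or NC replicate 1 or 2. Of the 8 falls with IL-10 at 6 h RRAGC and ATP6V1C1 were kept, and the count dropped to 4 or 5 without IL-10 replicate 1, 2 or 3 and to 2 without NC replicate 2. The gene raised by IL-10 at 3 h was ATP6V0A1 (0.10), and its call was lost without IL-10 replicate 3 (0.0874, adjusted p = 0.0633) or NC replicate 1 or 3 (0.0927 and 0.0817, adjusted p = 0.0561 and 0.0811).

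Over the 9 groups of a line, the highest group mean of a gene was a median of 1.23 times its lowest in HCT116 and 1.22 times in HepG2. Only the 37 genes that passed the filter in each line were ranked. NPC1 had the widest span in HCT116, 2.23 times, and, leaving CTSS aside, RRAGC in HepG2, 2.17 times. CTSS spanned 3.61 times in HepG2, but it passed the filter there only through its 6 h TNF-a libraries, its highest group. Torin1 at 6 h held the highest mean of 14 of 37 genes in HCT116, 5 of them cathepsins and 1 a V-ATPase subunit, and of 15 of 37 in HepG2, 3 of them cathepsins and 2 V-ATPase subunits. The same count was not made over all genes, so these numbers do not set the lysosomal genes apart from the rest.

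**Figure D5:**
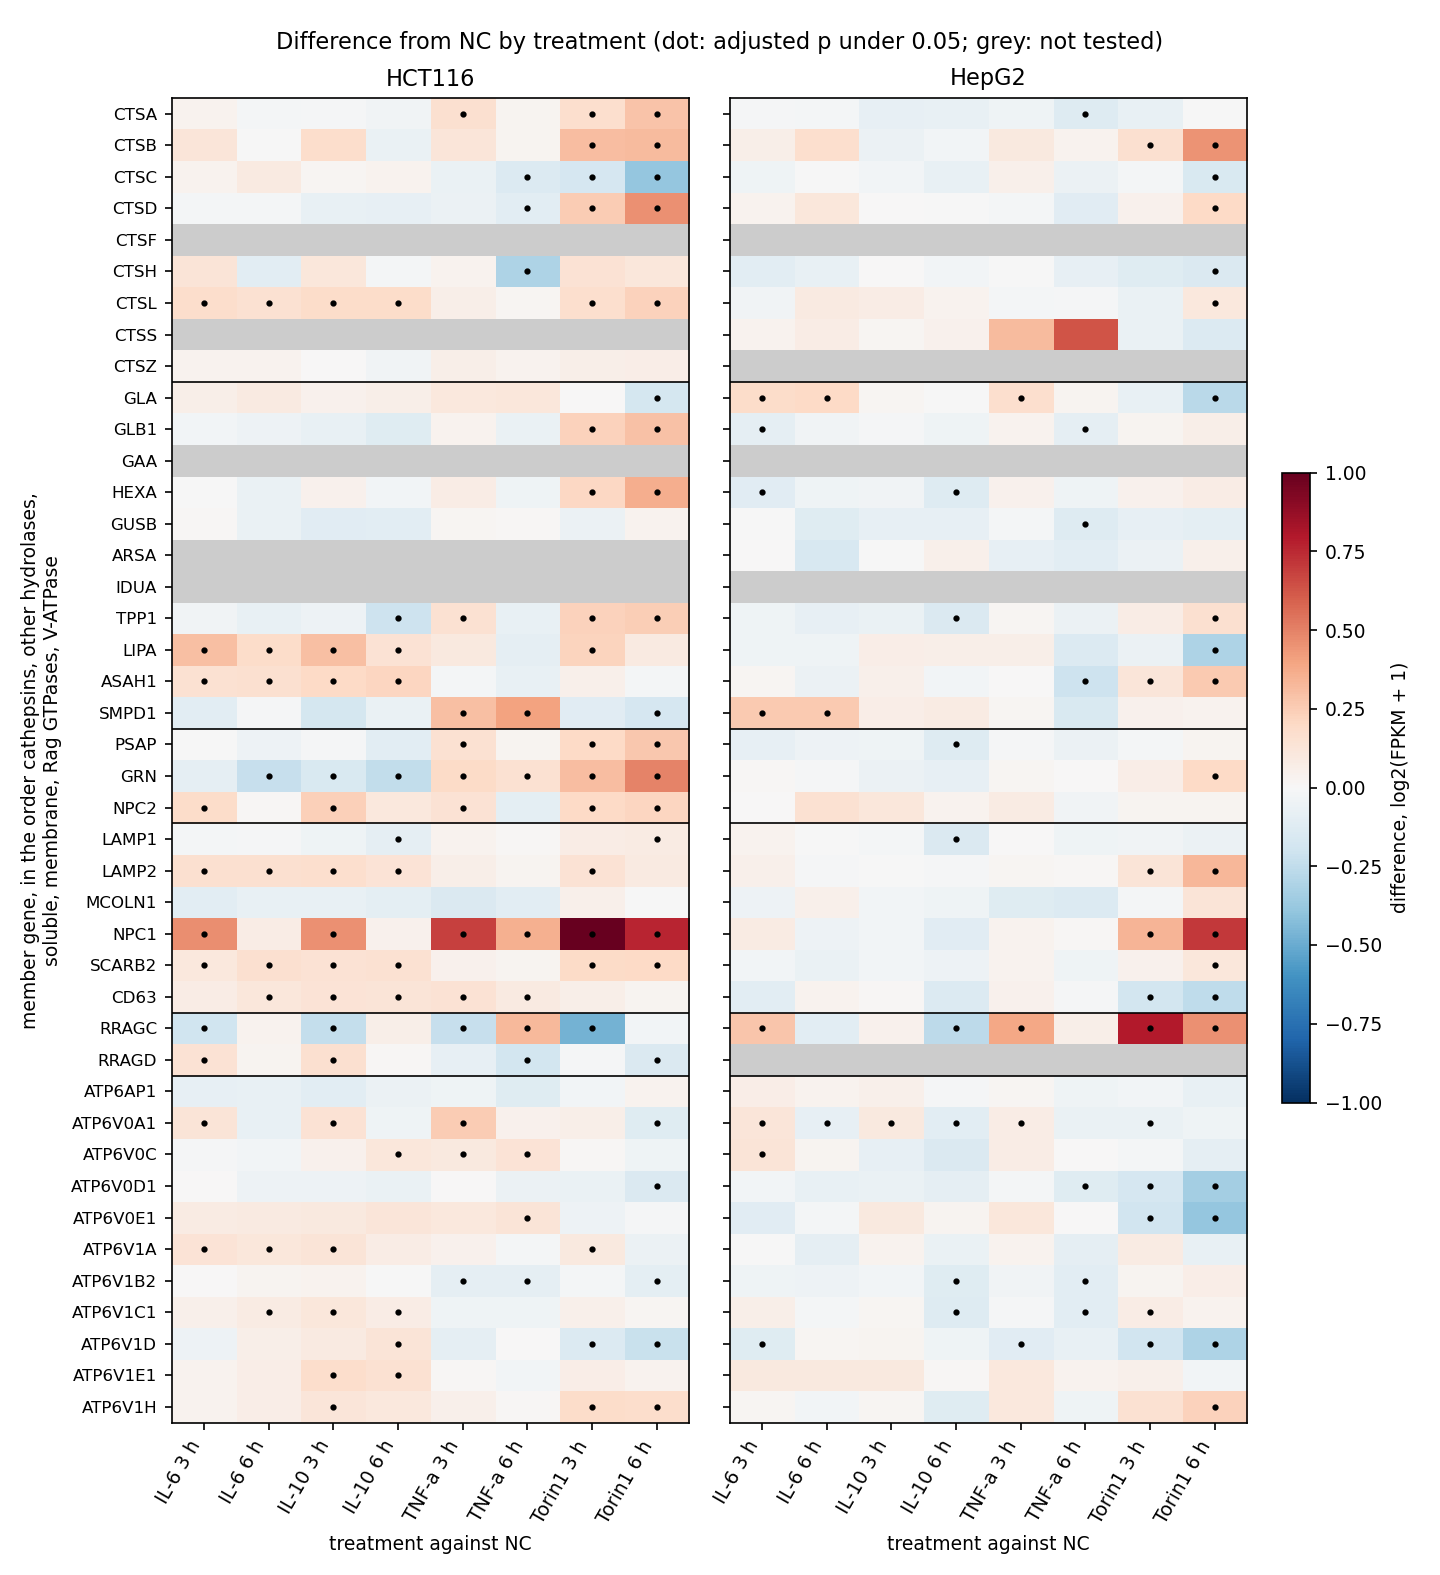
Difference from NC in log2(FPKM + 1) for each gene (rows, by class) and treatment (columns), HCT116 left and HepG2 right; red is higher, blue lower, dots mark an adjusted p under 0.05, grey is not tested and CTSS in HepG2 is drawn without dots. NPC1 is red across the 3 h columns of HCT116, CTSS only with TNF-a in HepG2, and RRAGC is blue in HCT116 and red in HepG2 after 3 h of Torin1.

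Other lysosomal hydrolases also rose more often than they fell in HCT116. Of 25 other lysosomal hydrolases tested there, 14 rose and 2 fell after 3 h of Torin1 and 13 rose and 2 fell after 6 h, with NAGLU, of heparan sulfate breakdown (0.40 and 0.56), and DNASE2, the acid nuclease (0.32 and 0.35), among them; under equal FPKM totals the 3 h split was 9 and 3. Over all genes 25.1% rose and 28.6% fell at 3 h in HCT116, and 25.8% and 31.5% at 6 h. In HepG2 2 of 25 rose and 1 fell at 3 h, and 5 rose and 3 fell at 6 h, where NAGLU had 0.17 and 0.22; with median-of-ratios factors the splits were 3 and 0, and 6 and 2, and under equal FPKM totals 2 and 3, and 5 and 5; over all genes 19.4% rose and 26.1% fell at 3 h, and 26.1% and 33.8% at 6 h. These shares are also the background of the lists that follow.

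Of 7 further V-ATPase genes in HCT116, 1 rose and 2 fell at 3 h and 1 rose and 4 fell at 6 h, with ATP6V0A2 at -0.19 and -0.33. In HepG2, of 6, none rose, and 2 fell at 3 h and 3 at 6 h, with ATP6V0E2 at -0.24 and -0.43. Either other scaling gave between 0 and 1 rises and between 1 and 5 falls in each of these comparisons.

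Of 22 other membrane proteins in HCT116, 8 rose and 6 fell at 3 h and 11 rose and 6 fell at 6 h, among them OSTM1, partner of the chloride exchanger CLCN7 (-0.55 and -0.69); under equal FPKM totals the splits were 5 and 7, and 8 and 7. In HepG2, of 21, 1 rose and 3 fell at 3 h and 5 rose and 6 fell at 6 h, and with median-of-ratios factors 3 and 1, and 6 and 1. Of 7 genes of mannose 6-phosphate sorting, which delivers hydrolases to the lysosome, 2 rose and 1 fell in HCT116 at 3 h and 3 rose and 2 fell at 6 h; under equal FPKM totals none rose and 2 fell at 3 h. In HepG2 1 rose and 1 fell, and 3 rose and 1 fell. Of the cystatins and related cathepsin inhibitors 4 passed the filter in HCT116, where CSTA (0.32 and 0.39) and CST3 (0.12 and 0.18) rose and CST6 (-0.31 and -0.37) fell, and CSTB did not pass, and 2 in HepG2, where CSTB fell at 6 h (-0.26).

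Among regulators, FLCN, which with FNIP1 or FNIP2 acts on RRAGC and RRAGD, had -0.12 (adjusted p = 0.0178) at 3 h and 0.11 (adjusted p = 0.026) at 6 h in HCT116, and 0.54 (adjusted p = 4.19e-10) and 0.36 (adjusted p = 1.12e-07) in HepG2. FNIP1 rose in HCT116 (0.29 and 0.46) and HepG2 (0.75 and 0.48), while FNIP2 fell in HCT116 (-0.40 and -0.47); in HepG2 FNIP2 did not pass at 3 h (0.05, adjusted p = 0.305) and rose at 6 h (0.29, adjusted p = 1.65e-06). TFEB was below the filter in HCT116, with 0.262, 0.110 and 0.156 FPKM after 3 h of Torin1 and 0.397, 0.330 and 0.364 FPKM after 6 h, against 0.572, 0.740 and 0.676 FPKM in NC, 3 groups that did not overlap. In HepG2 TFEB fell at 3 h (-0.21, adjusted p = 0.0026) and did not pass at 6 h (0.06, adjusted p = 0.34). MITF stayed below 1 FPKM in every library, and TFE3 was listed at or near 0 throughout, so its level is not known.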

How the data were processed

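Per the labels' protocols, polyadenylated RNA of 54 libraries was read in pairs on an MGISEQ-2000RS. The submitters' processing notes name FastQC, HISAT2, StringTie, DESeq2 and GRCh38, without versions; the sources used here do not give the counting tool. FPKM values were deposited by the authors in 1 table, and its columns were matched to samples by title. Whole reads could be recovered from the FPKM steps, within 0.01 read, for 36450 of 36451 genes (99.997%). The library factors in the deposited values matched median-of-ratios factors over all 54 libraries (ratios 0.998 to 1.002), so FPKM totals differ between libraries. The setting called median-of-ratios factors recomputed them over the libraries fitted and the genes tested. It is thus a variant of the deposited scaling.

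A gene was tested in a line if it had 1 FPKM or more in at least 3 libraries of it: 11395 genes in HCT116 and 11280 in HepG2. log2(FPKM + 1), with a pseudocount of 1, was fitted with limma 3.58.1 in R 4.3.3, with all 27 libraries of a line sharing the spread, or all 54 where lines were compared; p-values were adjusted over all genes tested (Benjamini-Hochberg). ± after a difference is its SE. A fit of the recovered reads with voom, chosen after seeing the data, called 6074 genes in HCT116 for Torin1 at 3 h, against 6120 from FPKM, and 6891 in HepG2 at 6 h, against 6756. Sequences come from RefSeq, GRCh38.p14, read with Python 3.11.15.

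Libraries of a group are called biological replicates in the series text, but separate cultures are not stated; p-values therefore reflect only how far these libraries spread, and that spread may be technical. The 42 genes, the classes and the other lists were chosen with earlier results of these data known. All 42 genes are described by value or count; of other lists, TFEB, TFE3, MITF, FLCN, FNIP1 and FNIP2 are named, and at most 4 called genes of largest change per list.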

Additional observations from a re-analysis of the deposited data

Results flagged for a closer look

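The Torin1 difference from NC differed between HCT116 and HepG2 for 33 gene and hour pairs by limma's interaction at an adjusted p under 0.05. Values below are the HCT116 difference minus the HepG2 difference on the log2(FPKM + 1) scale. Greater and smaller name the sign of this value only. A fall in HepG2 can thus count as greater in HCT116, and a larger fall in HCT116 as smaller.

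RRAGC stood out at both hours, at -1.26 after 3 h and -0.483 after 6 h, and NPC1 at 3 h, at 0.678. The differences greater in HCT116 at 3 h were LIPA 0.279, CTSH 0.269, GRN 0.242, CD63 0.241, CTSA 0.239, CTSL 0.233, PSAP 0.222, GLB1 0.21, CTSD 0.205, HEXA 0.167, TPP1 0.161, SCARB2 0.144 and ATP6V0A1 0.126, and CTSC was smaller at -0.149. At 6 h they were LIPA 0.402, ATP6V0E1 0.373, GRN 0.294, CTSA 0.291, HEXA 0.288, CD63 0.276, CTSH 0.26, CTSD 0.252, PSAP 0.238, GLB1 0.23, ATP6V0D1 0.196 and LAMP1 0.139, and the smaller ones were ASAH1 -0.285, LAMP2 -0.241, CTSC -0.229 and ATP6V1B2 -0.17.

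Some of these calls rested on single libraries. At 3 h CTSC lost its call without HCT116 Torin1 replicate 1, HCT116 NC replicate 1 or 2, HepG2 Torin1 replicate 1 or HepG2 NC replicate 1 (-0.14 to -0.128, adjusted p 0.0505 to 0.071). SCARB2 lost it without HCT116 Torin1 replicate 2 or 3, HCT116 NC replicate 3, HepG2 Torin1 replicate 3 or HepG2 NC replicate 2 (0.123 to 0.135, adjusted p 0.0596 to 0.0839). TPP1 lost it without HCT116 Torin1 replicate 2, HCT116 NC replicate 1, HepG2 Torin1 replicate 3 or HepG2 NC replicate 2 or 3 (0.14 to 0.148, adjusted p 0.0562 to 0.0679). ATP6V0A1 lost it without HCT116 Torin1 replicate 2, HCT116 NC replicate 1, HepG2 Torin1 replicate 2 or 3 or HepG2 NC replicate 2 (0.0889 to 0.118, adjusted p 0.0578 to 0.13). The call was also lost for HEXA without HCT116 Torin1 replicate 2 (0.141, adjusted p = 0.0612) and CTSH without HCT116 NC replicate 1 (0.196, adjusted p = 0.0795). At 6 h CTSH lost it without HCT116 NC replicate 1 (0.187, adjusted p = 0.0803) or HepG2 Torin1 replicate 3 (0.218, adjusted p = 0.052), and LAMP1 without HCT116 NC replicate 1 (0.117, adjusted p = 0.0539).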

How the results depend on the processing

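Counts of lysosomal genes called moved by over 1.5 times in these cases. Without the filter on low values the counts were 5 for IL-6 and 8 for IL-10 at 6 h in HCT116 (9 and 13 with it), and in HepG2 2 and 4 for TNF-a at 3 and 6 h (5 and 8), 3 and 1 for IL-6 at 3 and 6 h (8 and 3) and 5 for IL-10 at 6 h (8). Under equal FPKM totals they were 8 for HCT116 IL-10 at 6 h, 9 for HepG2 IL-6 at 6 h, 11 for HepG2 IL-10 at 3 h (1) and 18 for HepG2 Torin1 against IL-10 at 3 h (11). Median-of-ratios factors gave 4 for HepG2 TNF-a at 6 h, 3 for IL-10 at 3 h and 4 at 6 h. Fitting only the libraries compared gave 5 for HCT116 IL-10 at 6 h, 7 for HCT116 Torin1 at 6 h against 3 h (12), and in HepG2 2 for IL-6 at 3 h, 7 for IL-6 at 6 h and 0 for IL-10 at 3 h. No other planned comparison moved so far, the comparisons of Torin1 with NC included.

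Equal FPKM totals reversed 12 differences: ATP6V0C after Torin1 at 3 h (-0.093); after TNF-a at 3 h ATP6V0C (-0.0321), ATP6V0D1 (-0.125), ATP6V1E1 (-0.118), LAMP1 (-0.094) and SCARB2 (-0.088); ATP6V1B2 (-0.0888) and ATP6V1C1 (-0.0133) after IL-6 at 3 and 6 h, all in HCT116; and between the NC groups ATP6V0A1 (0.0327), ATP6V0C (0.14), GRN (0.0969) and RRAGC (0.233). The cause was not tested.

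Leaving out 1 library gave, for Torin1 against NC, 17 to 21 and 19 to 23 calls at 3 and 6 h in HCT116 and 8 to 10 and 17 to 18 in HepG2; against IL-10, 14 to 17 and 18 to 25, and 9 to 12 and 20 to 23; at 6 h against 3 h, 8 to 11 and 11 to 15. For the cytokines in HCT116 the ranges at 3 and 6 h were 11 to 13 and 8 to 11 (TNF-a), 8 to 13 and 4 to 6 (IL-6), and 13 to 18 and 8 to 12 (IL-10); in HepG2 2 to 4 and 4 to 6, 5 to 8 and 1 to 4, and 0 to 1 and 2 to 7. The difference between lines gave 12 to 16 at 3 h and 15 to 19 at 6 h, and the NC groups 34 to 36.

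Replicate numbers did not pair the libraries: in 23 comparisons same-numbered libraries correlated between -0.117 and 0.107. With the replicate block 1 count moved by over 1.5 times, that of HepG2 IL-10 at 3 h, to 2; over single genes 6 calls were gained and 4 lost.

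Summing CTSB with its copy row gained 2 calls of CTSB and lost 1, and voom on recovered reads gained 8 and lost 7; both were chosen after seeing the data. Depth limits CTSS in HCT116 and CTSZ, RRAGD and IDUA in HepG2, which rest on few reads, and such limits cover counting error only; the zeros of GAA and CTSF may be failed estimates. Counts of HepG2 TNF-a calls given here include CTSS.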
